A study of Mus musculus with 13 samples.

Results

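The miR-30 family was followed through its 5 mature 5p members, mmu-miR-30a-5p, mmu-miR-30b-5p, mmu-miR-30c-5p, mmu-miR-30d-5p and mmu-miR-30e-5p (the prefix, for mouse, is left out from here on), which were chosen by name out of 1452 miRNAs listed in either of the deposited count tables. All 5 were listed in both tables, and all 5 passed the low-count filter in both of the comparisons described here. The mouse study profiled small RNA carried by extracellular vesicles in cancer cachexia, the wasting that accompanies some tumours, in 13 sequencing libraries. The first group, called TMVs, held 3 libraries of vesicles shed by C26 cells, a colon adenocarcinoma line, into serum-free medium over 48 h of culture. The second group held 6 libraries of plasma vesicles from Balb/C mice that carried C26 cells injected under the skin of the back and were killed on day 14; the labels call these mice cachectic. The third group held 4 libraries of plasma vesicles from Balb/C control mice, called healthy in the labels. C26 is a single cell line, and the labels give neither age nor sex. As no label ties a library to its own animal or culture, a p-value here speaks only for the spread over the libraries, which may be technical.

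MicroRNAs are short RNAs that guide Argonaute proteins to messenger RNAs, mostly through pairing of the seed, the bases near their 5′ end. A hairpin precursor is cut into a 5p and a 3p strand, and one of the strands is usually kept in larger amount. The miR-30 members have one seed in common and so can recognise overlapping sets of messages; in human cancer cells, described targets include the epithelial-mesenchymal transition factor SNAI1 and the autophagy protein BECN1.

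The members' sequences show how alike they are and where they part. Mature sequences were taken from RefSeq on GRCm38.p6, which held 3 of the 5 members, and are written 5′ to 3′ with the seed, bases 2 to 8, in capitals.
miR-30a-5p: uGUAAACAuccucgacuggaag
miR-30e-5p: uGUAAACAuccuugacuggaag
miR-30c-5p: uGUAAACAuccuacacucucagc
miR-384-5p: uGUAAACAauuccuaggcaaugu
With positions counted from 1 at the 5′ end, miR-30a-5p differed from miR-30e-5p at 1 position, C13U, and from miR-30c-5p at 5 positions, C13A, G14C, G18C, G19U and A20C, all outside the seed. The sequence of miR-384-5p, a miRNA with another name and the same seed, departs from the members directly after the seed, and it had 0 counts in all 13 libraries. The sources used here do not say how reads that fit 2 near-identical miRNAs were assigned, so the split of counts between miR-30a-5p and miR-30e-5p is uncertain.

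The family comes from 6 precursor genes in 3 neighbouring pairs, given here in GENCODE M21 on GRCm38. Mir30a (chr1:23272269-23272339, plus strand) lies in no other annotated gene, and Mir30c-2 (chr1:23291701-23291784, plus strand) lies 19432 bases further on in an exon of the lincRNA gene Gm27028. Mir30e (chr4:120772606-120772697, minus strand) and Mir30c-1 (chr4:120769534-120769622, minus strand) lie 3072 bases apart in an intron of Nfyc, which encodes a subunit of the transcription factor NF-Y. Mir30d (chr15:68341208-68341289, minus strand), in an exon of the lincRNA gene Gm20732, lies 3793 bases from Mir30b (chr15:68337415-68337510, minus strand), in an exon of the gene Gm26621. Mir30c-1 and Mir30c-2 give the same miR-30c-5p, so its counts cannot be divided between chromosomes 4 and 1. The Mir30a hairpin, of 71 bases, is shown because it places both arms compared further on, with the 5p and 3p arms in capitals.
Mir30a hairpin: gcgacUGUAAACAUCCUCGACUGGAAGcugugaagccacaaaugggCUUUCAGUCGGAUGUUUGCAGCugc

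The libraries differed in depth and in 1 abundant miRNA. Total miRNA counts ran from 112357 to 170571 in the TMVs, from 9828 to 76376 in plasma of C26-bearing mice and from 7962 to 131385 in control plasma. In 5 plasma libraries, replicates 1 to 4 of C26-bearing plasma and replicate 4 of control plasma, miR-5119 alone took 26.6% to 58.7% of all counts, whereas it took at most 2.55% in the other 5 plasma libraries and at most 0.0382% in the TMVs. The miR-5119-rich libraries carry adjoining numbers, 18 to 22, after an S at the end of their descriptions. What this number stands for is not stated, and it is not unique. TMV replicate 1, with 0.0382% miR-5119, also carries 22. Of 6 listed red cell markers, 5 were detected in plasma. They summed to 3.52% to 8.24% of counts in the rich libraries and 19.5% to 52.7% in the poor ones. This difference lay in miR-486a-5p, with 1.52% to 4.17% in the rich libraries and 17.1% to 51.3% in the poor ones. The other red cell markers did not share it. For miR-451a the ranges overlapped, with 1.70% to 3.86% in the rich and 1.28% to 5.61% in the poor libraries. With the scaling used for the tests further on, miR-16-5p was higher in every rich library than in any poor one. Liver markers, 4 of 4 detected, summed to 0.830% to 10.3% in plasma of C26-bearing mice and 6.71% to 28.3% in control plasma. Muscle markers summed to 1.76% to 14.9% in plasma of C26-bearing mice, with miR-133b-3p at 0 there, and to 0.725% to 4.02% in control plasma, where all 4 were detected. The 3 platelet and endothelial markers, all detected, summed to 0.428% to 1.62% in plasma of C26-bearing mice and 0.662% to 1.20% in control plasma. In the TMVs, only 3 of 7 epithelial markers were detected, at a sum of 0.0098% to 0.0123% of counts; miR-200a-3p, miR-141-3p, miR-429-3p and miR-205-5p were at 0 in all 3.

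As a share of all counts, the miR-30 family was larger in the TMV libraries than in any plasma library. It held 4.82%, 5.97% and 5.69% of all miRNA counts in TMV replicates 1 to 3. In C26-bearing plasma it held 1.86%, 2.70%, 1.71%, 1.98%, 2.64% and 1.57% in replicates 1 to 6, and in control plasma 2.48%, 3.03%, 2.64% and 1.37% in replicates 1 to 4. The lowest TMV value lay above the highest plasma value, and the plasma groups overlapped. In such mixtures, fewer vesicles from a source and less of a miRNA in each vesicle cannot be told apart. The means were 5.49% ± 0.600 (SD, n = 3) in TMVs, 2.08% ± 0.481 (SD, n = 6) in plasma of C26-bearing mice and 2.38% ± 0.711 (SD, n = 4) in control plasma. These shares depend on what else fills a library. With miR-5119 left out of the totals they became 5.49% ± 0.600 in TMVs, 3.12% ± 1.06 in plasma of C26-bearing mice and 2.68% ± 0.257 in control plasma, so the difference between C26-bearing and control plasma changed sign, with −0.302 percentage points over all counts and 0.434 without miR-5119. It was also positive, at 0.153 points, without control replicates 2 and 3, and −0.0862 without control replicate 2 alone. Other abundant plasma miRNAs stayed in these totals. Among them, miR-122-5p held 5.87% to 25.5% of control plasma counts and at most 0.0375% in TMVs. For miR-486a-5p these values were 2.22% to 25.5% and at most 0.908%. With the scaling used for the tests further on, the members' median log2 fold change of TMVs against control plasma was 0.04. That median counts scarce and major members alike, and the scaled sum was not compared between TMVs and plasma. The larger share in TMVs is therefore stated for shares of counts only. The sum of the 5 members was not tested, since the members were chosen with earlier results known. With the 5 members summed, and all other miRNAs summed by seed where the sequence table gave one, the family ranked 5, 3 and 3 by summed counts in the TMVs, between 8 and 10 in plasma of C26-bearing mice and between 7 and 10 in control plasma; other names without a sequence, up to 62.2% of counts in a library, were ranked singly, which can understate other families.

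**Figure D1:**
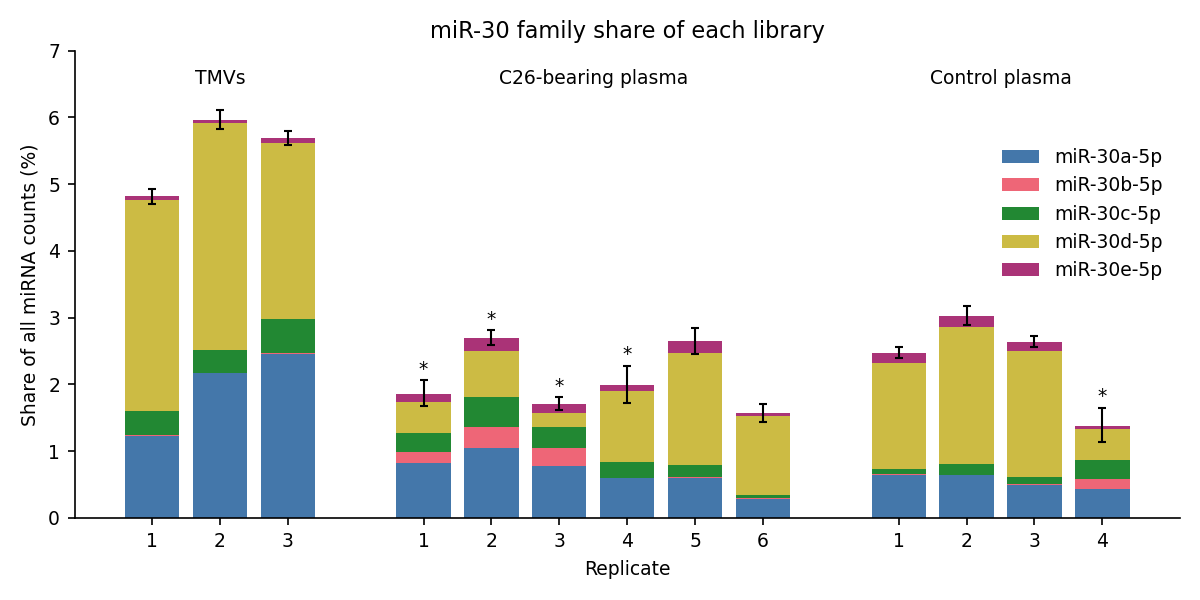
Share of all miRNA counts held by the 5 miR-30 members in each library (vertical axis, percent), with 95% Wilson intervals as error bars, which cover counting error only; TMVs are at the left, C26-bearing plasma in the middle and control plasma at the right. Asterisks mark the 5 libraries with over 20% miR-5119. The 3 TMV libraries lie between 4.82% and 5.97%, and all 10 plasma libraries lie at or below 3.03%.

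Within the family, miR-30d-5p and miR-30a-5p were the major members of 12 of the 13 libraries, and the minor members differed between TMVs and plasma. In TMV replicates 1 to 3, miR-30d-5p had 4635, 3833 and 4521 counts and ranked 11, 10 and 11 among all miRNAs of its table. There miR-30a-5p had 1806, 2432 and 4182 counts and ranked 21, 15 and 15. Together these members made up nearly all of the TMV signal, as miR-30d-5p held 56.5% ± 9.57 of the family and miR-30a-5p 34.99% ± 8.82 (SD, n = 3 each). The member with 2 precursors, miR-30c-5p, had 534, 381 and 851 counts in the TMVs, or 7.34% ± 1.55 of the family. The lowest were miR-30e-5p, with 73, 51 and 114 counts and 0.990% ± 0.210 of the family, and miR-30b-5p, with 9, 7 and 38 counts and 0.208% ± 0.160 (SD, n = 3 each). In this order, the family shares of neighbouring members did not overlap over the 3 TMV libraries. The TMV counts of miR-30d-5p and miR-30b-5p, whose genes lie 3793 bases apart, stood at the opposite ends of the family, with 4635 against 9 counts in replicate 1.

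Plasma mostly had the same pair of leading members, with a wide spread between libraries. In C26-bearing plasma, miR-30d-5p held 25.6%, 25.4%, 12.8%, 53.8%, 63.7% and 75.4% of the family in replicates 1 to 6, and in control plasma 64.3%, 67.5%, 71.7% and 33.9% in replicates 1 to 4. In C26-bearing plasma, miR-30a-5p held 44.0%, 39.0%, 45.2%, 29.7%, 22.6% and 18.2%, and in control plasma 26.2%, 20.97%, 18.8% and 32.1%. In replicates 1 to 3 of C26-bearing plasma miR-30a-5p was the larger of the pair, and in every other plasma library miR-30d-5p was. In replicate 3 of C26-bearing plasma, miR-30c-5p with 18.6% and miR-30b-5p with 15.8% also exceeded miR-30d-5p. The low miR-30d-5p shares and the high miR-30a-5p shares fell in the 5 libraries rich in miR-5119. In those, miR-30d-5p held 12.8% to 53.8% of the family and miR-30a-5p 29.7% to 45.2%; in the 5 poor libraries, miR-30d-5p held 63.7% to 75.4% and miR-30a-5p 18.2% to 26.2%.

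The miR-30c-5p share split along the same line, with 12.3% to 21.1% of the family in the rich libraries and 3.01% to 6.66% in the poor ones. The rich libraries included 4 of the 6 from C26-bearing mice and 1 of the 4 from control mice, and miR-486a-5p was lower in them, as given above. The part of group or of miR-486a-5p in these shares was not tested. In contrast, miR-30e-5p held much the same share in both kinds, with 5.65% ± 2.14 in the rich and 5.21% ± 1.64 in the poor libraries (SD, n = 5 each).

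Counts of miR-30b-5p were the most uneven of the family. In C26-bearing plasma, miR-30b-5p had 33, 234, 178, 0, 5 and 2 counts in replicates 1 to 6, and in control plasma 5, 0, 12 and 11 counts in replicates 1 to 4. It reached 9.19%, 11.4% and 15.8% of the family in the first 3 C26-bearing replicates and 10.1% in control replicate 4, and it was below 1% of the family in the other 6 plasma libraries. The high values were all from libraries rich in miR-5119. The fourth C26-bearing replicate was also rich in miR-5119 and had 0 counts of miR-30b-5p among 9828, which allows up to 305 CPM (counts scaled to a common library total), or 3 counts in that library.

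**Figure D2:**
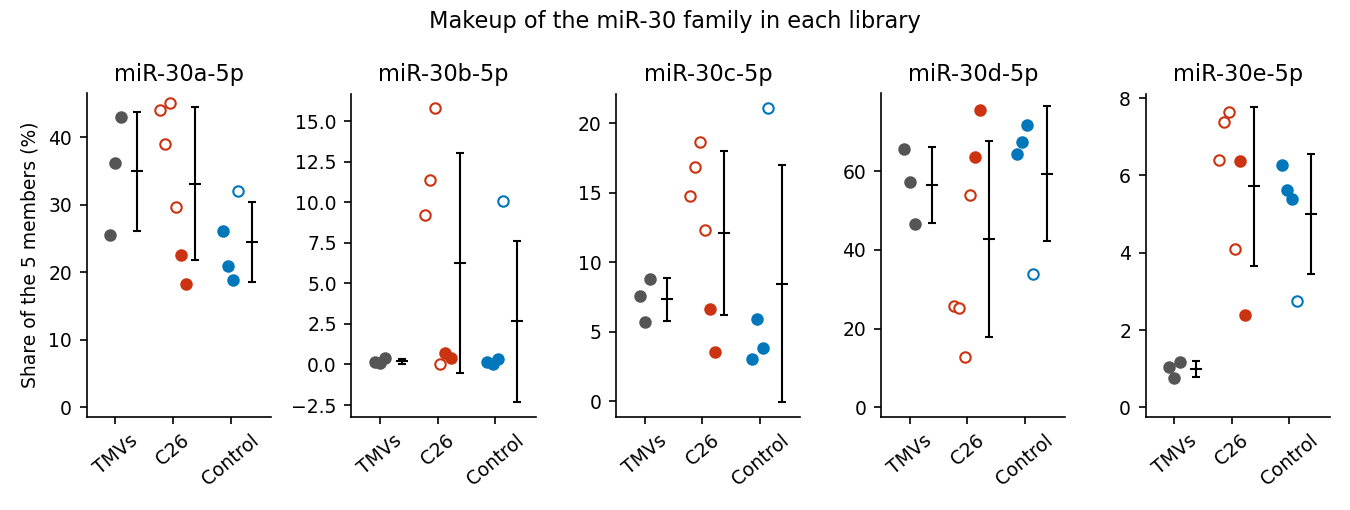
Share of the summed counts of the 5 members held by each member (vertical axes, percent, one panel per member with its own scale); TMVs are at the left, C26-bearing plasma in the middle and control plasma at the right of each panel. Each circle is 1 library, open for the 5 libraries with over 20% miR-5119 and filled for the others, and the bars are the mean ± SD of the group. For miR-30a-5p and miR-30d-5p the open circles lie on one side of the filled plasma circles, and for miR-30e-5p the 3 TMV libraries lie below all plasma libraries.

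The effect of the tumour on these members was asked by comparing C26-bearing with control plasma, and none of the 5 passed the test. Values in this comparison are CPM after TMM scaling, in which library totals are adjusted so that most miRNAs match between libraries. In C26-bearing plasma, miR-30a-5p stood at 8469.7, 10074, 12095, 5900.2, 5238 and 3219 CPM in replicates 1 to 6, and in control plasma at 7188, 5456, 3679 and 6048 CPM in replicates 1 to 4. The control values all lay inside the range of the C26-bearing ones. The means were 7499 ± 3307 CPM in C26-bearing plasma (SD, n = 6) and 5593 ± 1464 CPM in control plasma (SD, n = 4), with a log2 fold change of 0.43 (SE 0.42, adjusted p = 0.746 by edgeR's quasi-likelihood test with Benjamini-Hochberg adjustment over 130 miRNAs).

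The other major member lay on the opposite side of 0. In C26-bearing plasma, miR-30d-5p stood at 4932, 6541, 3422, 10681, 14799.5 and 13332.5 CPM, and in control plasma at 17654, 17555, 14024 and 6393 CPM. The first 3 C26-bearing libraries and control replicate 4, all rich in miR-5119, were the lowest 4. The means were 8951 ± 4668 CPM in C26-bearing plasma (SD, n = 6) and 13906 ± 5286 CPM in control plasma (SD, n = 4), for a log2 fold change of −0.64 (SE 0.48, adjusted p = 0.651, edgeR).

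Of the minor members, miR-30c-5p stood at 2841, 4348, 4990, 2441, 1546 and 629.9 CPM in plasma of C26-bearing mice and at 826, 1541, 745 and 3974 CPM in control plasma. It had a log2 fold change of 0.71 (SE 0.68, edgeR adjusted p = 0.746). In C26-bearing plasma, miR-30b-5p stood at 1769, 2932, 4229.6, 0, 158 and 70.0 CPM, and in control plasma at 43.9, 0, 67.7 and 1901 CPM. Its log2 fold change of 1.99 had an SE of 1.78 (edgeR adjusted p = 0.746), and each group held libraries at or near 0. In C26-bearing plasma, miR-30e-5p stood at 1233, 1905, 2044, 814, 1483 and 419.9 CPM, and in control plasma at 1722, 1464, 1055 and 518 CPM. These groups covered nearly the same range, with a log2 fold change of 0.13 (SE 0.58, edgeR adjusted p = 0.939).

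Across the plasma table, 0 of 130 miRNAs were called at an adjusted p of 0.05 by edgeR (0%), 15 had an unadjusted p under 0.05, and none of the 5 members was among these. DESeq2 called 4 miRNAs and no member, and a limma-voom fit weighted by library quality gave 17 calls, among them miR-30c-5p at a log2 fold change of 1.59 (SE 0.47, adjusted p = 0.0414). The groups overlapped for all 5 members, beside 1.54% of the tested miRNAs whose groups did not overlap. The members' median log2 fold change was 0.43, beside 0.01 over all tested miRNAs, and 4 of 5 were above 0. The overall median moved to 0.19 with RLE scaling, and with total count scaling miR-30e-5p turned to −0.01.

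The plasma differences of all 5 members were closer to 0 with the miR-5119 split in the model. With a term for it, the log2 fold changes of C26-bearing against control plasma were −0.01 (SE 0.42) for miR-30a-5p, −0.14 (SE 0.41) for miR-30d-5p, 0.00 (SE 0.36) for miR-30c-5p, 0.87 (SE 0.98) for miR-30b-5p and 0.06 (SE 0.70) for miR-30e-5p, and no member passed. Among the poor libraries alone, 2 C26-bearing against 3 control, they were −0.34 (SE 0.45) for miR-30a-5p, −0.21 (SE 0.44) for miR-30d-5p, 0.06 (SE 0.64) for miR-30c-5p and −0.56 (SE 0.64) for miR-30e-5p, and miR-30b-5p did not pass the low-count filter. Among the rich libraries alone, 4 C26-bearing against 1 control whose spread was assumed to equal that of the rest, they were 0.55 (SE 0.60) for miR-30a-5p, −0.03 (SE 0.75) for miR-30d-5p, −0.18 (SE 0.58) for miR-30c-5p, 0.17 (SE 1.85) for miR-30b-5p and 1.48 (SE 1.03) for miR-30e-5p. Control replicate 4 decided the size for 2 members, as without it the log2 fold change was 5.40 for miR-30b-5p and 1.61 for miR-30c-5p.

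**Figure D3:**
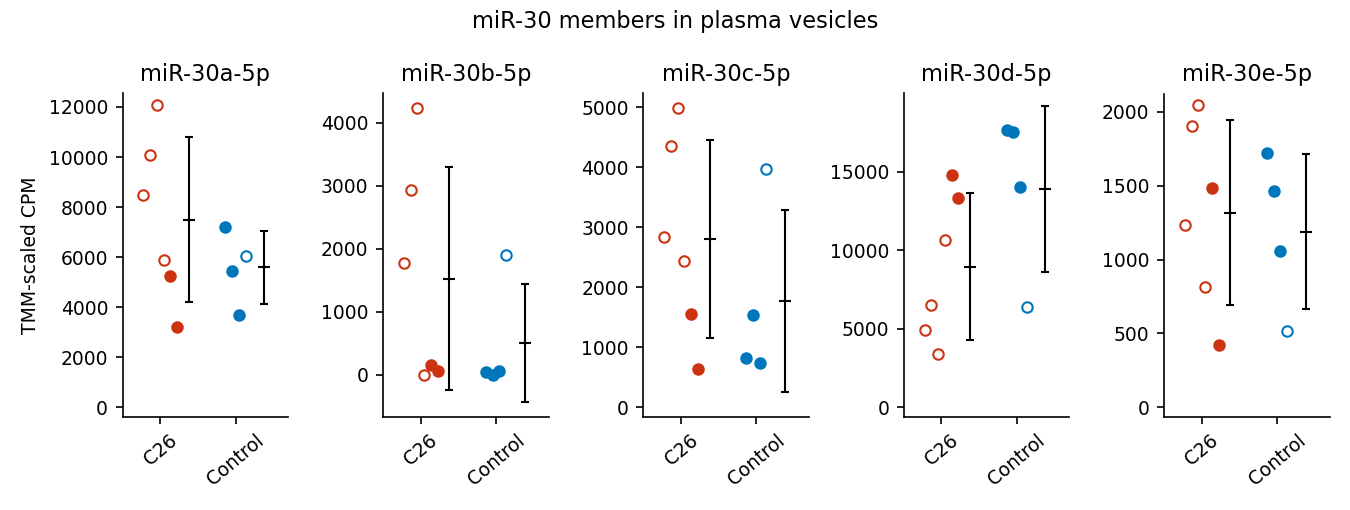
TMM-scaled CPM of each member in plasma vesicles (vertical axes, linear, one panel per member with its own scale), with C26-bearing plasma at the left and control plasma at the right. Each circle is 1 library, open for the 5 libraries with over 20% miR-5119 and filled for the others, and the bars are the mean ± SD. The groups overlap for all 5 members, and within each group the open circles lie above the filled ones for miR-30c-5p and below them for miR-30d-5p.

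Set against control plasma, the TMVs were lower in 1 member, miR-30e-5p. This comparison used the miRNAs named in both tables, and cell of origin, vesicle preparation and table cannot be told apart in it. Markers of blood and liver differed with it: red cell markers summed to 0.489% to 1.54% of counts in TMVs and 6.02% to 31.3% in control plasma, and liver markers to 0.0635% to 0.110% in TMVs and 6.71% to 28.3% in control plasma, and their part in the result was not tested. In the TMVs, miR-30e-5p had 73, 51 and 114 counts, against 196, 95, 187 and 3 counts in control plasma. After TMM scaling it stood at 370 ± 130 CPM in TMVs (SD, n = 3) and 1704 ± 778 CPM in control plasma (SD, n = 4), and all 3 TMV libraries were below all 4 control libraries. The log2 fold change was −2.26 (SE 0.55, adjusted p = 0.00395 by edgeR's quasi-likelihood test with Benjamini-Hochberg adjustment over 209 miRNAs). It was the only member called and the only one whose groups did not overlap after TMM scaling. In this comparison 57.4% of all tested miRNAs were called (27.3% lower and 30.1% higher) and 59.3% did not overlap, beside 1 of 5 members. The lowest control value of miR-30e-5p, 649 CPM in replicate 4, rests on 3 counts. As a share of all counts its groups overlapped, with 0.0377% in control replicate 4 and 0.0454% to 0.0668% in TMVs. Over 19 alternative settings the log2 fold change of miR-30e-5p ran from −2.64 to −1.29 (adjusted p between 2.03e-06 and 0.0565).

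The other 4 members did not pass in this comparison. Their log2 fold changes of TMVs against control plasma were 0.79 (SE 0.45, edgeR adjusted p = 0.142) for miR-30a-5p, 0.31 (SE 0.58, adjusted p = 0.676) for miR-30c-5p, 0.04 (SE 0.47, adjusted p = 0.969) for miR-30d-5p and −1.77 (SE 1.57, adjusted p = 0.337) for miR-30b-5p. The members' median was 0.04, beside 0.11 over all tested miRNAs, of which 63 were called higher and 57 lower. Scaling by total counts moved that overall median to 1.09 and the calls to 96 higher and 49 lower; miR-30a-5p was then called at a log2 fold change of 1.78 (adjusted p = 0.00293) and miR-30c-5p at 1.33 (adjusted p = 0.0476), while miR-30e-5p stood at −1.29 and missed the threshold (adjusted p = 0.0565). Other settings also called miR-30a-5p, at 1.23 without TMV replicate 1 (adjusted p = 0.0456), at 1.19 with a filter of 10 CPM (adjusted p = 0.0401) and at 0.91 with DESeq2 (adjusted p = 0.0409). Relative to the median of all miRNAs, miR-30e-5p was lower under both scalings.

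**Figure D4:**
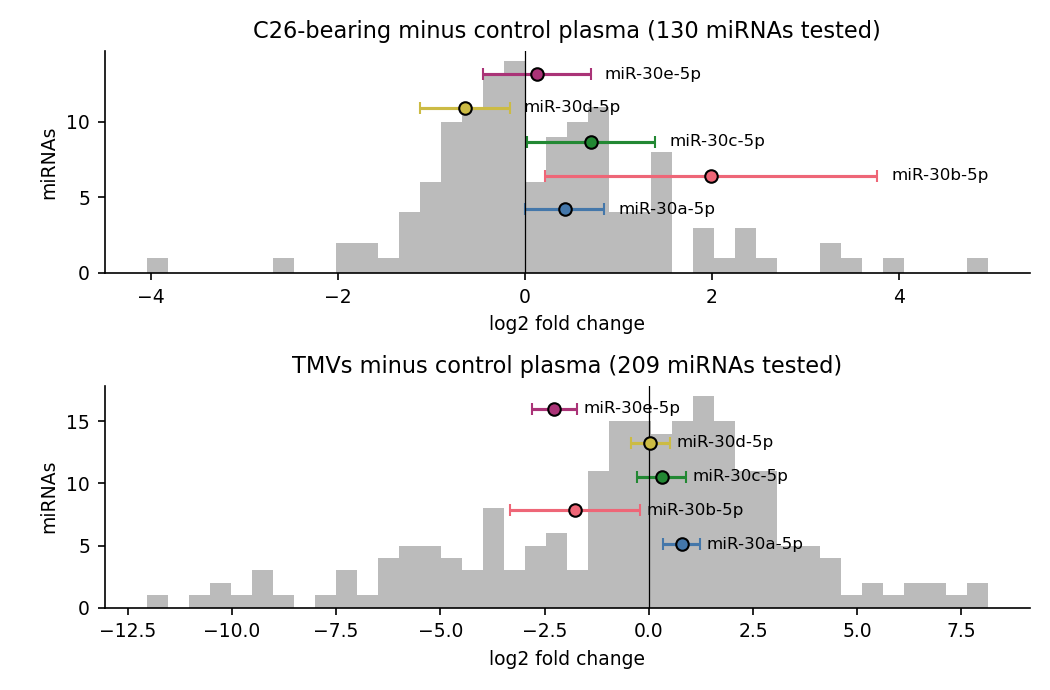
Log2 fold changes of the 5 members (points, with ± 1 SE bars) in C26-bearing against control plasma and in TMVs against control plasma, each over a grey histogram of all miRNAs tested in that comparison (horizontal axes, log2 fold change; vertical axes, number of miRNAs, which apply to the histograms alone). Only miR-30e-5p in TMVs, at −2.26, passed an adjusted p of 0.05; the 2 comparisons share the 4 control libraries.

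The makeup of the family can be compared without any scaling between libraries, because the members of a library are set against each other. Over 15 such comparisons, 5 members in 3 pairs of groups, none passed after Benjamini-Hochberg adjustment, and no single comparison could have passed by itself, since the smallest p allowed by the group sizes adjusts to 0.0714, 0.429 and 0.179 when reached once. Of the family's counts, miR-30e-5p held 1.03%, 0.761% and 1.17% in the TMVs, against 6.41%, 7.38%, 7.63%, 4.10%, 6.39% and 2.38% in C26-bearing plasma. The 3 TMV values were below all 6, and the difference of −4.72 percentage points had an exact two-sided permutation p of 0.0119, the smallest this design allows (adjusted 0.179). Against control plasma, where miR-30e-5p held 6.28%, 5.63%, 5.39% and 2.75%, the 3 TMV values were again all lower, and the difference of −4.02 points had an exact permutation p of 0.0571 (adjusted 0.429). Between C26-bearing and control plasma, the largest difference was −16.6 points for miR-30d-5p (exact permutation p = 0.248, adjusted 0.531), within the spread between libraries.

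In the TMVs there were 0.030 counts of miR-30e-5p for each count of miR-30a-5p (0.021 to 0.040 over 3 libraries), against 0.176 in C26-bearing plasma (0.130 to 0.283 over 6) and 0.220 in control plasma (0.086 to 0.287 over 4). These miRNAs differ by 1 base, C13U, and the TMV ratio was below that of every plasma library. For miR-30a-5p against miR-30d-5p, the ratio was 0.650 in TMVs (0.390 to 0.925), 1.32 in C26-bearing plasma (0.241 to 3.53) and 0.482 in control plasma (0.262 to 0.946), and the groups overlapped.

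The 3p strands of the same hairpins give a second readout of the precursors. Of the 8 other miRNAs listed with the family, 2 passed the filter in plasma, of which 0 were called (median log2 fold change −0.58, beside 0.01 over all tested), and 3 in the comparison with TMVs, of which 1 was called, higher (median 0.31, beside 0.11), where 57.4% of all tested miRNAs were called and 30.1% were called higher. Of the 8 listed, 7 were named in the count tables, and miR-30f was named in neither, so it has no values here. RefSeq sequences are shown for the 3p strands of Mir30a, Mir30e and both Mir30c precursors, because they show that the 3p seeds are not that of the 5p members and because the pair from Mir30c tells its precursors apart.
miR-30a-3p: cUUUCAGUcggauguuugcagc
miR-30e-3p: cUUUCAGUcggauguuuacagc
miR-30c-1-3p: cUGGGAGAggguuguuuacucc
miR-30c-2-3p: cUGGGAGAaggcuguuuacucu
The strands of miR-30a-3p and miR-30e-3p differ at 1 position, G18A, and those of miR-30c-1-3p and miR-30c-2-3p at 3 positions, G9A, U12C and C22U, counted as before.

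The called strand was that of Mir30c-2. In TMV replicates 1 to 3, miR-30c-2-3p had 72, 64 and 61 counts, against 1, 3, 1, 0, 0 and 0 counts in plasma of C26-bearing mice and 0, 0, 0 and 1 in control plasma. After TMM scaling these were 281, 383 and 278 CPM in TMVs, against 0, 0, 0 and 216 CPM in control plasma, so the single count of the shallow control replicate 4 came close to the TMV values. In C26-bearing replicate 4, 0 counts still allow up to 305 CPM. Summed, these were 197 of 429451 counts in TMVs, 5 of 231670 in plasma of C26-bearing mice and 1 of 321126 in control plasma. The rate in TMVs was 21.3 times that in C26-bearing plasma (exact 95% interval 8.96 to 66.2) and 147 times that in control plasma (26.1 to 5848); the intervals cover counting error only. Against control plasma, edgeR gave a log2 fold change of 5.81 (SE 1.21, adjusted p = 0.00171), and it stayed between 4.26 and 8.51 over 19 alternative settings (adjusted p between 2.35e-05 and 0.0443). Its size rests on 1 count in control plasma, of replicate 4. The low-count filter was passed by miR-30c-2-3p only through the TMV libraries, where it was high. The filter thus favoured a call of higher, and the adjusted p is not separate support for the difference in counts. The 5p strand that Mir30c-2 shares with Mir30c-1 did not pass the same test, with a log2 fold change of 0.31.

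As a share of 5p and 3p counts together, the miR-30c 3p strands made up 10.5% in TMVs (exact 95% interval 9.17 to 11.9; 207 of 1973 counts), 0.708% in C26-bearing plasma (0.23 to 1.64; 5 of 706) and 0.286% in control plasma (1 of 350). By library the share was 12.3%, 14.96% and 7.10% in TMVs, at most 1.85% in C26-bearing plasma, and 0%, 0%, 0% and 4.17% in control plasma, where the last value is 1 count of control replicate 4.

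For miR-30e, the 3p strand made up 31.8%, 45.2% and 29.6% of its counts in the TMVs. In C26-bearing plasma it made up 11.5%, 12.1%, 11.3%, 20%, 6% and 36.8%, and in control plasma 24.3%, 18.1%, 10.95% and 40%, so C26-bearing replicate 6 and control replicate 4, with 12 and 3 counts of miR-30e-5p, reached the TMV values. On the TMM scale, miR-30e-3p had a log2 fold change of −1.24 in TMVs against control plasma (SE 0.57, edgeR adjusted p = 0.0820) and of −0.70 in C26-bearing against control plasma (SE 0.56, edgeR adjusted p = 0.660), and passed in neither. Without control replicate 3 the TMV value was −1.77 and passed (adjusted p = 0.0141), and without control replicate 4 it was −1.40 (adjusted p = 0.0455).

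For miR-30a, the 3p strand made up 12.2%, 9.25% and 9.64% in TMVs. In C26-bearing plasma its range was 4.14% to 11.7%, and in control plasma 10.3% to 16.7%; the groups overlapped. Its log2 fold changes were 0.31 in TMVs against control plasma (SE 0.49, edgeR adjusted p = 0.603) and −0.45 in C26-bearing against control plasma (SE 0.45, edgeR adjusted p = 0.746). With total count scaling, which moved the median of all miRNAs to 1.09, the TMV value was 1.30 and passed (edgeR adjusted p = 0.0334).

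For the chromosome 15 pair, the 3p shares differed beyond counting error in the TMVs, and the intervals overlapped in C26-bearing plasma. For miR-30d, the 3p strand had 0 of 12989 counts in TMVs, which allows a share of up to 0.0231%, 0 of 1713 in plasma of C26-bearing mice, which allows up to 0.175%, and 1 of 5671 in control plasma. For miR-30b, it made up 32.5% in TMVs (exact 95% interval 22.4 to 43.9; 26 of 80 counts), 0.221% in C26-bearing plasma (0.00559 to 1.22; 1 of 453) and 3.45% in control plasma (0.0873 to 17.8; 1 of 29). Each plasma share of miR-30b rests on 1 count of the 3p strand.

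**Figure D5:**
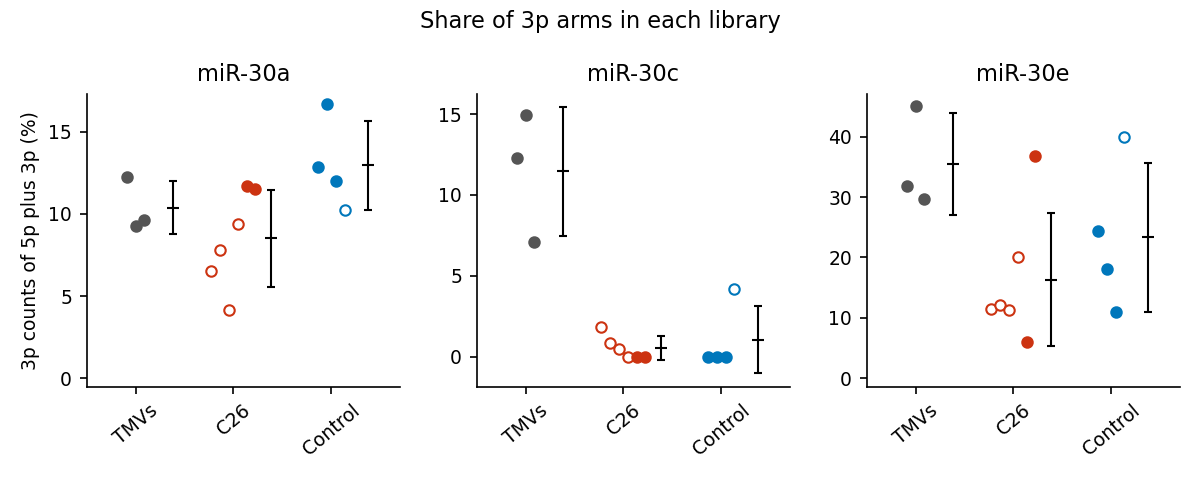
Counts of the 3p strand as a percent of 5p plus 3p counts for miR-30a, miR-30c and miR-30e (vertical axes, one panel each with its own scale), with TMVs at the left, C26-bearing plasma in the middle and control plasma at the right. Each circle is 1 library, open for the 5 libraries with over 20% miR-5119 and filled for the others, and the bars are the mean ± SD. For miR-30c the 3 TMV libraries, at 7.10% to 14.96%, lie above all plasma libraries.

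Over the 10 plasma libraries the summed family stood at 19244, 25799, 26780, 19837, 23225 and 17672 TMM-scaled CPM in plasma of C26-bearing mice and at 27434, 26016, 19571 and 18834 CPM in control plasma. The 5 other miRNAs nearest to this sum, by the root mean square difference of mean-centred log2 CPM over these libraries, were miR-142a-5p (0.28), miR-30a-3p (0.32), miR-146b-5p (0.33), miR-126a-3p (0.42) and miR-27b-3p (0.45). As the sum itself varied little, from 17672 to 27434 CPM, this measure favours miRNAs that vary little. It cannot show that they rise and fall with the family. The member nearest to the sum, miR-30a-5p, had a difference of 0.47.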

How the data were processed

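Small RNA was sequenced from 13 vesicle libraries with a NEBNext small RNA kit on a NextSeq500, per the labels' protocols. Reads were handled with bcl2fastq and cutadapt 1.10, per the submitters' processing notes; the sources used here do not give the aligner, counter, annotation or build. The authors deposited raw counts per mature miRNA, whole numbers in 2 tables, 1164 miRNAs for TMVs and 1354 for plasma, with 1066 in both. Groups and replicate numbers came from the titles; control replicates 2 and 3 each have 2 numbers in the description, without a stated meaning.

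Each comparison was fitted on its whole table with edgeR 4.0.16 in R 4.3.3 (filterByExpr with a minimum count of 10, TMM scaling, robust quasi-likelihood test), with Benjamini-Hochberg adjustment over all miRNAs tested at 0.05. The fits were tested on simulated counts with known changes. SE is the log2 fold change divided by the square root of the F statistic. Family shares used exact two-sided permutation tests of the difference of means. Alternatives used DESeq2 1.42.0, limma 3.58.1, other scalings, filters and left-out libraries. The members, the list of other miR-30 products and the marker lists were chosen with earlier results of these data known. The text names all members, the listed other miR-30 products, miRNAs with the same seed and the 5 nearest to the summed family in plasma. Tissue markers and miR-5119 serve as context. Wilson and exact intervals and the limit of 3 counts cover counting error only. Depths of 7962 to 170571 counts make 3 counts equal to 377 CPM in the shallowest library and 17.6 CPM in the deepest.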

Additional observations from a re-analysis of the deposited data

Results flagged for a closer look

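Control plasma replicate 4 lay far from the other 3 control libraries in 4 measures, each with a gap to its nearest neighbour above Dixon's 95% critical value for 4 samples. Its miR-30b-5p took 0.138% of all counts, where the next highest control had 0.00913% (gap over range 0.934). The same member was 10.1% of the family, next to 0.346% (0.966), and 1901 TMM-scaled CPM, next to 67.7 (0.964). Its miR-30c-5p was 21.1% of the family, next to 5.92% (0.839). This library had 7962 counts, of which 46.1% were miR-5119, and its miR-30b-5p values rest on 11 counts; the part of depth or miR-5119 in these values was not tested. The 4 values overlap in the counts they use, 36 sets of values were examined, and chance gives about 1 in 20.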

How the results depend on the processing

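In C26-bearing against control plasma, the 0 of 130 miRNAs called became 4 of 955 with no low-count filter and 4 of 130 with DESeq2. Limma-voom called 17 of 130, and 2 of 130 were called with a term for libraries rich in miR-5119. With single libraries left out, 0 to 1 were called (1 of 103 without C26-bearing replicate 2 or replicate 3). Members called became 1 of 5 with limma-voom. In TMVs against control plasma, the 120 calls among 209 tested miRNAs became 188 among 334 with a 10 CPM filter, a similar share. With single libraries left out, the calls ran from 98 among 188 to 122 among 200. The 1 member called became 2 with total count scaling (145 of 209 miRNAs called), a 10 CPM filter or DESeq2 (137 of 209). With libraries left out, 1 to 2 members were called. The family's share in C26-bearing minus control plasma became 0.434 percentage points without miR-5119 in the totals and −0.639 to −0.0862 with libraries left out, and in TMVs minus control plasma 2.78 to 3.45. Member shares past the test were 0 under every alternative run, which says nothing of stability, since no single share could pass in this design.

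Other values that changed sign were mostly near 0 or widely spread. For C26-bearing against control plasma, the log2 fold change of miR-30e-5p was −0.0142 with total count scaling, −0.0591 with no filter, −0.0330 without libraries under 10000 counts, −0.56 in libraries poor in miR-5119 and −0.0247 to 0.31 with single libraries left out; miR-30a-5p was −0.00988 with the miR-5119 term and −0.34 in poor libraries, and miR-30c-5p −0.18 in rich ones. For TMVs against control plasma, miR-30d-5p was −0.0380 with limma-voom, −0.37 without libraries under 10000 counts and −0.37 to 0.25 with libraries left out; miR-30c-5p was −0.0668 without both controls that carry 2 numbers and −0.22 to 0.69 with libraries left out, and miR-30a-3p −0.0934 to 0.67. The differences in family share changed sign on a log2 scale relative to the members' mean for miR-30a-5p (−0.27) and miR-30e-5p (−0.53) in C26-bearing against control plasma, for miR-30c-5p (0.76) and miR-30d-5p (0.51) in TMVs against control plasma, and for miR-30c-5p (0.63) in TMVs against C26-bearing plasma. With poor plasma libraries alone, in percentage points, they were −1.60 for miR-30a-5p, 1.76 for miR-30d-5p and −1.39 for miR-30e-5p in C26-bearing against control plasma, and 2.23 for miR-30c-5p and −13.1 for miR-30d-5p in TMVs against C26-bearing plasma; in TMVs against control plasma they were 0.0391 for miR-30b-5p and 3.09 for miR-30c-5p, as they were without libraries under 10000 counts. Without both controls that carry 2 numbers, miR-30d-5p was 7.33 points in TMVs against control plasma. With libraries left out, the ranges that crossed 0 were −11.3 to 2.07 for miR-30d-5p, −3.32 to 0.0391 for miR-30b-5p and −2.94 to 3.09 for miR-30c-5p in TMVs against control plasma, −2.19 to 6.56 for miR-30a-5p in TMVs against C26-bearing plasma, and −0.0520 to 1.37 for miR-30e-5p in C26-bearing against control plasma. Over all alternatives, 43 single-miRNA values changed sign, 444 kept their side of the test, 11 newly passed and 1 no longer passed; the cause was not tested.

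Same-numbered libraries did not deviate together (r from −0.372 to 0.156 in plasma and −0.107 to 0.0361 with TMVs), so the numbers were not taken to pair samples. With the replicate number as a block, log2 fold changes in C26-bearing against control plasma were 0.70 for miR-30a-5p, 5.01 for miR-30b-5p, 1.40 for miR-30c-5p, −1.20 for miR-30d-5p and 0.36 for miR-30e-5p, none past the test, and in TMVs against control plasma the block gave 0.51 for miR-30b-5p and −0.22 for miR-30d-5p. In libraries under 10000 counts, 3 counts equal over 300 CPM, so low miR-30b-5p was not detectable there.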
